A study of Mus musculus with 24 samples.

Results

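Methylation was read CpG by CpG in 3 single mouse ESC lines that carry the bacterial fragment FR1 with the composite OCT4SOX2 motif or its scrambled version. They are 3 of the 24 samples of the series and were chosen by their labels: a line with the WT motif and a line with the Sc (scrambled) motif, both under the −SssI condition, and an Sc line under the +SssI condition. In the study, FR1 variants were inserted by recombinase-mediated cassette exchange into an inactive site of the β-globin locus of ESCs, either as they were (−SssI) or after methylation of all CpGs in vitro by the bacterial enzyme M.SssI (+SssI), and methylation was later read by bisulfite amplicon sequencing. The labels give all these lines as ESCs of strain C57BL/6 X 129S5. According to the study's methods, individual lines grew from picked colonies. Each line is therefore 1 clone with 1 library, and the tests below compare libraries and their reads, not conditions across independent clones. The labels of the lines say only WT or Sc. The motif name comes from the headings of the deposited percentage tables. The count columns of these lines are headed with the name of another library of the series, the knockdown with all siRNAs, so the link of values to lines rests on the sample record of each table.

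The ESC pools of the same series, in which cells with constructs of 26 motifs grew together, served as the comparison, with 3 samples in 2 tables (−SssI and +SssI, each treated as 1 pool). One further library, from a WT OCT4SOX2 line of the +SssI condition transfected with non-targeting siRNA, is set beside the 3 lines without a test.

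OCT4 (Pou5f1) and SOX2 are transcription factors of the pluripotency network that bind a composite DNA element side by side, each covering its own part of the motif. Methylation of cytosine in CpGs is copied to the daughter strand by DNMT1 and set anew by DNMT3A and DNMT3B, while TET dioxygenases oxidise it and so open a route to demethylation. A fragment of bacterial DNA has no mammalian history, so the CpGs around an inserted motif report on what happens to methylation in the presence of that motif, and a scrambled motif in the same fragment is the control for it.

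FR1 was read over 23 CpGs outside the motif, placed by their distance from its 5′ end: 18 upstream, from −291 to −32 bp, and 5 downstream, from 37 to 252 bp. Positions set aside for CpGs inside a motif, used only where a motif holds one, had no reads. The motif sequence was not at hand, so whether OCT4SOX2 holds a CpG was not checked. Every CpG of every line had at least 714 reads. The WT line had 1709 to 1815 reads per CpG, the Sc line 714 to 972, and the Sc line of the +SssI condition 1630 to 2231. A methylation level is the percentage of methylated reads at a CpG, a mean is taken over CpGs, and intervals are 95% intervals that cover counting error only. They do not hold the spread between clones, which 1 library per line cannot show. CpGs of 1 amplicon share reads, so the intervals of means were set at the median number of reads.

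FR1 in the WT line was methylated at a low level, and FR1 in the Sc line at a high level, with no prior methylation in either. The mean over 23 CpGs was 16.1% (14.4 to 17.9) in the WT line and 71.8% (68.4 to 74.9) in the Sc line, a Δmet (WT minus Sc) of −55.7 points (−59.2 to −51.8), so that the Sc line was methylated 4.46-fold more. Δmet was −57.6 points upstream and −48.7 points downstream. The low level of the WT line thus stood on both sides of the motif.

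**Figure D1:**
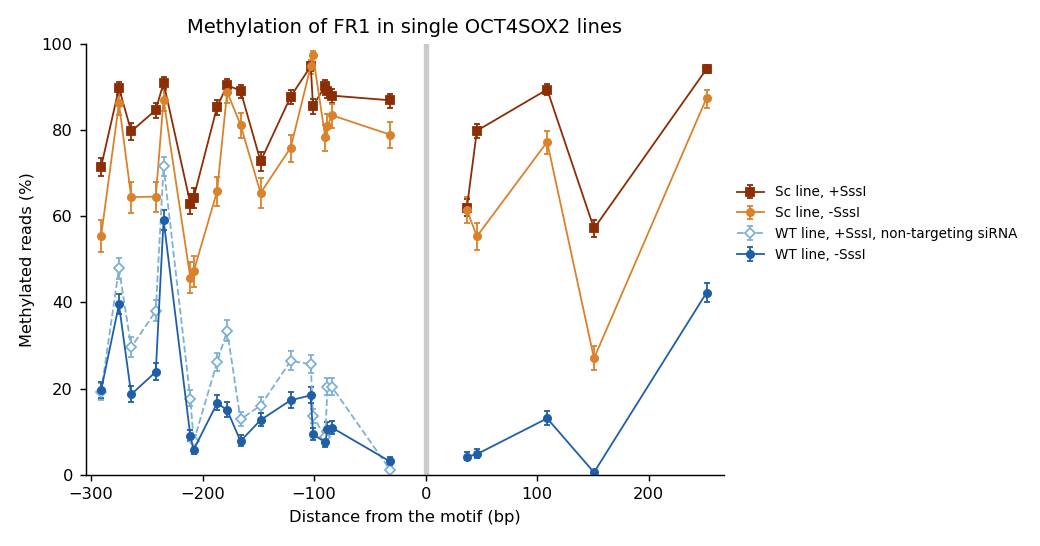
Methylated reads in percent (y axis) at each CpG against its distance from the motif in bp (x axis) in the WT line −SssI, the Sc line −SssI, the Sc line +SssI and a WT line +SssI with non-targeting siRNA. Bars are 95% Wilson intervals and the grey line marks the motif. The WT line runs between 0.557% and 59.1% and stays under both Sc profiles at all 23 CpGs.

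Per CpG, methylated and unmethylated reads were compared by two-sided Fisher's exact tests with Benjamini-Hochberg adjustment over both comparisons of the lines, and a CpG was called when the adjusted p was under 0.05 and the difference at least 10 points. All 23 of 23 CpGs were called lower in the WT line (100% of those tested), and none was higher. The largest adjusted p was 5.76e-45, at −235 bp. Together they formed 1 hypomethylated region (HMR, at least 3 consecutive called CpGs over more than 50 bp) from −291 to 252 bp, the whole of the 543 bp read, so neither edge of the region lies within FR1 as sequenced.

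The CpGs nearest the motif were almost free of methylation in the WT line. At −32 bp the level was 3.10% in the WT line against 79.0% in the Sc line, a Δmet of −75.9 points. At 37 bp it was 4.19% against 61.5%, a Δmet of −57.3 points. Both differences were far beyond counting error.

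The largest Δmet lay about 100 bp upstream. At −101 bp the WT line had 9.44% and the Sc line 97.4%, a Δmet of −87.9 points (−89.5 to −85.9). At −103 bp, only 2 bp away, the levels were 18.4% and 94.9%, with a Δmet of −76.4 points. These were the highest levels of the Sc line, and no other CpG of that line reached 90%.

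The smallest Δmet had opposite backgrounds. At 151 bp both lines were at their lowest, with 0.557% (10 methylated reads of 1794) in the WT line and 27.0% in the Sc line, a Δmet of −26.5 points. At −235 bp both were high, with 59.1% in the WT line and 87.1% in the Sc line, a Δmet of −27.9 points. At −291 bp, the outermost CpG upstream, the levels were 19.7% and 55.5%, a Δmet of −35.8 points. In points these differences are alike, but as a share of the Sc level the WT line held 2.06% at 151 bp, 67.9% at −235 bp and 35.4% at −291 bp. At 252 bp, the outermost CpG downstream, it held 48.3%, from 42.3% against 87.5%.

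**Figure D2:**
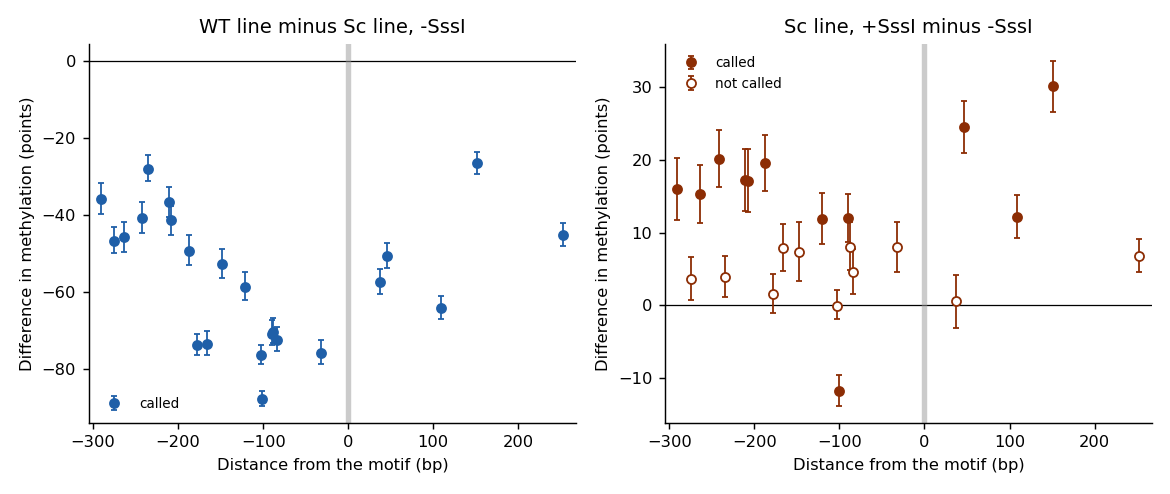
Difference in methylation in percentage points (y axis) at each CpG against distance from the motif in bp (x axis), for WT minus Sc without SssI (left) and for the Sc line with minus without SssI (right). Bars are 95% Newcombe intervals of counting error, and filled points were called. On the left all 23 points lie between −87.9 and −26.5; on the right 11 called points lie above 0 and 1, at −101 bp, below.

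The residual methylation of the WT line was higher farther from the motif. The WT level as a percentage of the Sc level was 11.7% over the 6 CpGs from −103 to −32 bp, 18.4% over the 5 from −187 to −121 bp and 39.0% over the 7 from −291 to −208 bp. In levels, the WT line went from 10.02% to 13.9% and 25.1% over these stretches, while the Sc line went the other way, from 85.7% to 75.5% and 64.4%, and so did the Sc line with SssI, from 89.1% to 85.1% and 77.7%. The share thus combines a higher WT level and a lower Sc level away from the motif on the upstream side. Over the 23 CpGs this share followed the distance from the motif on either side with a Pearson r of 0.74 and a Spearman rho of 0.78. Upstream alone, over 18 CpGs, the values were 0.71 and 0.79. This is a description, since CpGs of an amplicon share their reads and clone. The trend was not smooth. Within 3 bp of each other, the CpGs at −211 and −208 bp held 19.8% and 12.3% of the Sc level, while −235 bp, the next CpG outward, held 67.9%. Downstream, 151 bp held less than the nearer CpGs at 37 and 46 bp, which held 6.81% and 8.66%.

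In counts of CpGs, 9 of 23 lay under 10% and 19 under 20% in the WT line, and only −235 bp exceeded 50%. In the Sc line no CpG lay under 20% and 3 lay under 50%, at −211, −208 and 151 bp. Over both sides together, the level of the Sc line followed distance little (r = −0.13, rho = −0.10 over 23 CpGs), against r = −0.47 and rho = −0.41 over the 18 upstream CpGs. The profiles of the WT and Sc lines resembled each other loosely (r = 0.42, rho = 0.41 over 23 CpGs). They shared high values at −275, −235 and 252 bp and low values at −211, −208 and 151 bp.

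**Figure D3:**
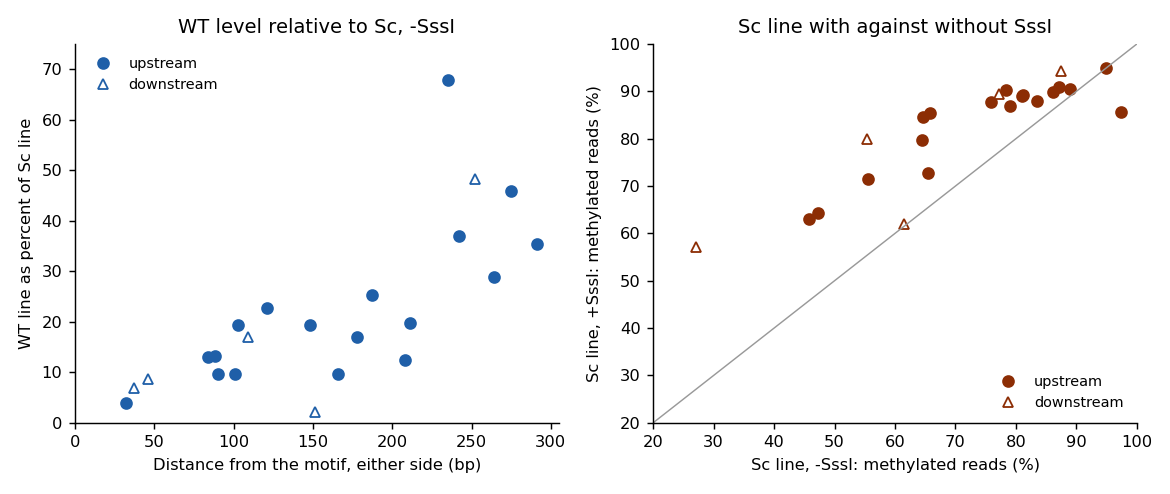
Left: level of the WT line as a percentage of the Sc line −SssI (y axis) against distance from the motif in bp on either side (x axis), with 18 upstream and 5 downstream CpGs. Right: methylated reads in percent of the Sc line with SssI (y axis) against without SssI (x axis), with the line of equality. The WT share runs from 2.06% at 151 bp to 67.9% at −235 bp, and 21 of 23 CpGs on the right lie above equality.

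The second comparison sets the Sc line of the +SssI condition against the Sc line of the −SssI condition. The lines are separate clones, and retained and newly set methylation cannot be told apart in them. A gain is the +SssI level minus the −SssI level, not a change over time. The Sc line of the +SssI condition had a mean of 82.0% (80.1 to 83.8), against 71.8% in the Sc line of the −SssI condition, a difference of 10.3 points (6.57 to 14.1). The gain was 9.02 points upstream and 14.8 points downstream. It was small beside the WT to Sc difference, and both Sc lines were mostly methylated. No CpG of the +SssI line lay under 50%, and 15 of 23 lay at 80% or above, against 9 in the −SssI line.

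By the same test, 11 of 23 CpGs were called higher with SssI (47.8% of those tested) and 1 lower (4.35%). A further 8 passed the test with gains under 10 points, and 3 did not pass. The only region of at least 3 consecutive called CpGs over more than 50 bp lay downstream, from 46 to 151 bp, with a mean gain of 22.3 points. Upstream, the CpGs at −211, −208 and −187 bp were also 3 consecutive called ones, but within less than 50 bp.

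The gain was largest where the −SssI line was low. At 151 bp the level was 27.0% without and 57.2% with SssI, a gain of 30.1 points. At 46 bp it was 55.3% and 79.9%, a gain of 24.5 points, and at −242 bp 64.6% and 84.7%, a gain of 20.1 points. At −291 bp the gain was 16.0 points. Of the 9 CpGs at 80% or above in the −SssI line, none was called higher with SssI, and −101 bp was called lower. Among these CpGs, −101 and −103 bp had 2.64% and 5.15% unmethylated reads, so a gain of 10 points was not possible there. The others had from 11.1% (−178 bp) to 19.1% (−88 bp), which left room for it. The part of this room in the calls was not tested. The level was higher with SssI by 6.73 points at 252 bp (94.2% against 87.5%) and by 7.96 points at −32 bp (86.9% against 79.0%). Both passed the adjusted p but were under 10 points. Over 23 CpGs the gain and the −SssI level had r = −0.82 and rho = −0.80, a description in which both values contain the −SssI level.

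The CpGs that did not pass were 3. At −103 bp the levels were 94.9% without and 94.8% with SssI (adjusted p = 1.0, Fisher's exact test). At 37 bp they were 61.5% and 62.0%, a difference of 0.55 points (−3.08 to 4.24, adjusted p = 0.80, Fisher's exact test). At −178 bp, named because it was the remaining CpG of these, they were 88.9% and 90.4%, a difference of 1.55 points (−1.04 to 4.38). The CpG at 37 bp stands out, since its level left room for a gain and its neighbour 9 bp away gained 24.5 points. With SssI, the level stepped up by 17.8 points from 37 to 46 bp, and without SssI it stepped down (−6.13 points).

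One CpG went against all others. At −101 bp the level was 97.4% without and 85.6% with SssI, a difference of −11.7 points (−13.8 to −9.58, adjusted p = 1.66e-20, Fisher's exact test). The CpG 2 bp away had the same level in both. The step from −103 to −101 bp was 2.51 points in the Sc line −SssI and −9.22 points in the Sc line +SssI. In the other libraries read here it was −9.01 points in the WT line −SssI, −12.1 points in the WT line with non-targeting siRNA, and in the pools −12.7 points for Sc −SssI, −9.11 for Sc +SssI and −9.56 for WT +SssI. The WT construct of the −SssI pool, with 36 and 37 reads at these CpGs, had a step of 2.55 points. So among the libraries with more than 100 reads here, only the Sc line −SssI was higher at −101 than at −103 bp.

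The WT line of the +SssI condition with non-targeting siRNA, read at the 18 upstream CpGs with 1524 to 1543 reads, had a mean of 24.3% (22.2 to 26.5). Beside it, upstream, stood 17.0% in the WT line −SssI, 74.6% in the Sc line −SssI and 83.6% in the Sc line +SssI. With SssI, WT was thus lower than Sc at all 18 CpGs, with a mean difference of −59.3 points and a range from −85.8 at −32 bp to −19.4 at −235 bp. WT with SssI was higher than WT without it at 16 of 18 CpGs, by 7.30 points on average, beside 9.02 points for the Sc lines. The exceptions were −291 bp (19.2% against 19.7%) and −32 bp, with 1.17% against 3.10%. The transfection is a further difference between the WT libraries, so these values were not tested. Both WT profiles had the same shape (r = 0.96, rho = 0.89 over 18 CpGs).

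The same pair of motifs had also been read in the ESC pools, where the number of clones behind each construct is not given. In the −SssI pool, reads summed over runs gave a mean of 12.1% (5.03 to 26.3) for WT and 56.9% (51.9 to 61.7) for Sc, a Δmet of −44.8 points (−53.4 to −29.8). The Sc construct had a median of 386 reads, at which its intervals over 23 CpGs were set here and below, but 11 reads downstream. These intervals are thus too narrow for the downstream CpGs. In the +SssI pool the means were 16.2% and 80.3%, a Δmet of −64.2 points. There most WT reads came from run 7 (median 428 per CpG) and most Sc reads from run 5 (median 400). No +SssI run held at least 10 reads of both constructs, so motif and run cannot be told apart in that pool. At −SssI, 21 of the 23 CpGs of OCT4SOX2 were called lower in WT, beside 48.4% of the 616 CpGs tested over all 26 motifs. At +SssI all 23 were, beside 50.2%. The 2 CpGs of the −SssI pool that were not called lay downstream, at 109 and 151 bp, where the Sc construct had 11 reads.

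The pool values rest on far fewer reads than the lines, unevenly spread over sequencing runs. WT −SssI had 36 to 40 reads per CpG, nearly all from run 4, where 13 of 18 upstream CpGs had no methylated read and the upstream mean was 2.26%. The 4 or 5 reads of run 7 had an upstream mean of 51.1%. Sc −SssI had 377 to 388 reads upstream, with run means of 45.3%, 60.0%, 60.9% and 61.1%. In run 4, the only run with at least 10 reads of both constructs, Δmet upstream was −43.1 points, lower at 18 of 18 CpGs. Runs 5 and 1 did not differ significantly in their construct counts (chi-square 65.2, 56 degrees of freedom, p = 0.19), which does not show that they are the same library. Counted as 1 run, they gave a Δmet of −49.2 points, over the 18 upstream CpGs that then still had at least 10 reads, against −50.3 points upstream with all reads.

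**Figure D4:**
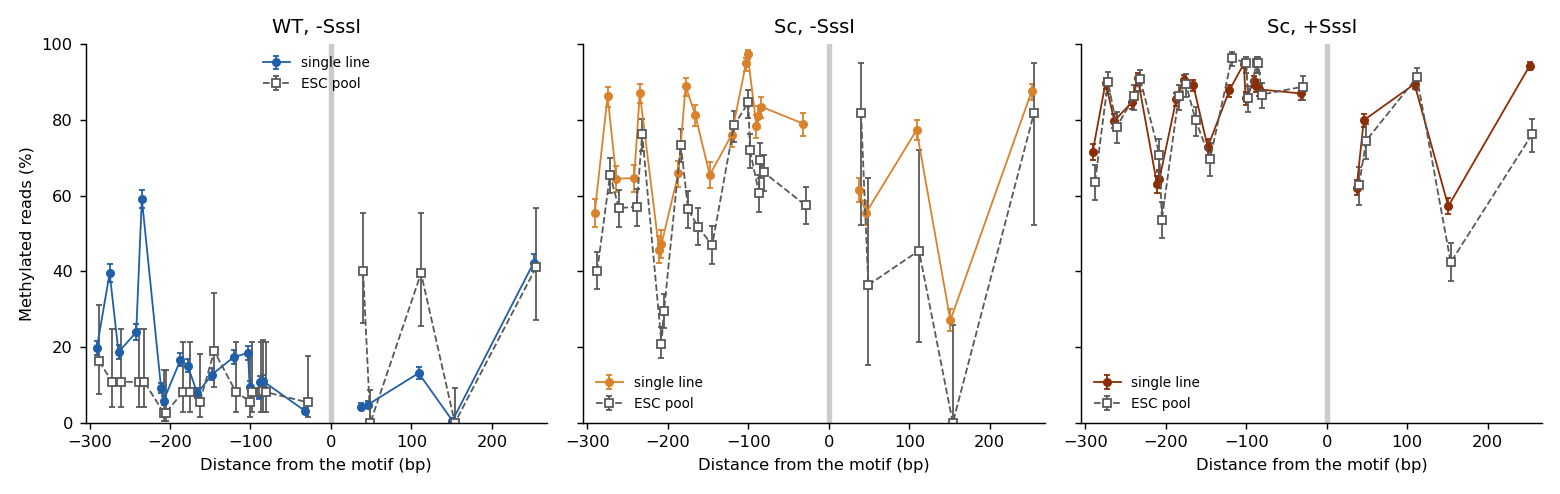
Methylated reads in percent (y axis) against distance from the motif in bp (x axis) for the single lines (filled circles) and the OCT4SOX2 constructs of the ESC pools (open squares, drawn 3 bp to the right), for WT −SssI, Sc −SssI and Sc +SssI. Bars are 95% Wilson intervals. The Sc −SssI line lies above the pool at 20 of 23 CpGs, and the Sc +SssI profiles run close together.

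Against the pools, the 3 lines differed in different ways (Fisher's exact tests per CpG, adjusted over the 3 comparisons together). The Sc −SssI line was higher than its pool construct at 20 of 23 CpGs, by 14.9 points on average (8.96 to 20.8), and 14 CpGs (60.9% of those tested) were called higher, none lower. Upstream the mean difference was 15.5 points (9.68 to 21.3). Downstream, on 11 reads of the pool, it was 12.6 points (−13.2 to 38.0). The difference was 32.4 points at −178 bp (88.9% against 56.4%) and 29.4 points at −166 bp (81.2% against 51.8%). At 109 bp it was 31.8 points, on 11 reads of the pool, and was not called. The CpGs that went the other way, −187, −121 and 37 bp, had differences of −7.62, −2.56 and −20.3 points and were not called. A row of 6 consecutive called CpGs, from −103 to −32 bp, formed a region with a mean of 17.3 points.

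The Sc +SssI line and its pool construct had close means, 82.0% and 80.3%, with a difference of 1.72 points (−2.33 to 6.20), and 12 of 23 CpGs were lower and 11 higher in the line. By the test, 3 CpGs (13% of those tested) were called higher and none lower. The differences were 18.1 points at 252 bp, 14.8 points at 151 bp and 10.7 points at −208 bp. On the lower side, −121, −211 and −88 bp had −8.56, −7.84 and −5.87 points, past the adjusted p but under 10 points. At −101 bp, where the −SssI line had been 25.5 points above its pool, line and pool had 85.6% and 85.8%. At 37 bp they had 62.0% and 62.7%. Most reads of the pool came from run 5, whose upstream mean was 83.6%, as in the line. Without that run the difference between line and pool was 12.9 points, with only run 4 left. Run 4 had 11 or 12 reads per upstream CpG and 95 to 98 downstream.

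The WT −SssI line was 4.02 points above its pool construct (−10.3 to 11.3), an interval that spans 0. The difference was 8.20 points without run 7 of the pool, and 8.23 points over the upstream CpGs alone. In all, 4 CpGs were called, of which 2 were higher in the line (8.7% of those tested) and 2 lower (8.7%). At −235 bp the line had 59.1% and the pool 10.8% (difference 48.3 points), and at −275 bp 39.5% and 10.8% (28.7 points). At 37 and 109 bp the line had 4.19% and 13.1% and the pool 40.0% and 39.5%, differences of −35.8 and −26.4 points. The remaining differences ran up to 13.1 points, at −242 bp, and the CpGs against the mean at −148, −90 and −32 bp had −6.21, −0.58 and −2.30 points, none called. Without the few reads of run 7, 9 CpGs were called.

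The profile of the WT −SssI line was closer to the WT construct of the +SssI pool than to that of the −SssI pool. Over 23 CpGs the correlation was r = 0.94 and rho = 0.93 with the +SssI pool, which had 121 to 509 reads, and r = 0.26 and rho = 0.59 with the −SssI pool. The means of line and +SssI pool were 16.1% and 16.2%, and the pool had 55.5% at −235 bp and 37.4% at −275 bp. The largest gap was at 252 bp, with 42.3% in the line and 25.8% in the pool. Most upstream reads of that pool construct came from run 7 (424 to 432 per CpG), with an upstream mean of 20.1%. Run 3 (39 to 41 reads) had 8.69%, run 6 (32 or 33 reads) 1.01% and run 4 (2 or 3 reads) 22.2%. The profile of the summed reads is thus mainly that of run 7. For Sc, the −SssI line had r = 0.80 and rho = 0.65 with the −SssI pool, and the +SssI line r = 0.89 and rho = 0.77 with the +SssI pool. These libraries differ in condition and reads, and may differ in number of clones, and the part of each was not tested.

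Whether the differences themselves differed between lines and pools was tested per CpG, as a difference of differences with a z test and adjustment over CpGs. Δmet was more negative in the lines at 11 of 23 CpGs (47.8% of those tested) and less negative at 2 (8.7%). The excess was −58.2 points at 109 bp, −27.2 at −166 bp and −26.5 at 151 bp. In the other direction, −235 bp had 37.5 points and −187 bp 16.1 points, and −121 bp had 11.8 points without passing the threshold. On the mean over CpGs, the lines exceeded the pool by −10.9 points, with an interval of −23.4 to 1.67 that spans 0. Within the pools, 21 of the 23 CpGs of the OCT4SOX2 Sc construct were called higher with SssI and none lower, beside 42.7% higher and 20.3% lower among the 616 CpGs of all 26 Sc constructs. The gain of Sc with SssI was smaller in the lines than in the pools at 13 CpGs (56.5% of those tested) and larger at none. The mean gain was 10.3 points between the lines and 23.4 points between the pools, a difference of −13.2 points (−20.5 to −5.86). Upstream this difference was −15.3 points (−22.4 to −8.21). Downstream, where the Sc construct of the −SssI pool had 11 reads, it was −5.48 points, with an interval of −33.3 to 22.3 that spans 0. With all runs, the difference in gain was largest at 109, −211 and −178 bp, with −33.6, −32.6 and −31.4 points. At −187, 37 and 252 bp it went against the mean, with 6.83, 19.6 and 12.4 points, none past the threshold. At 109 bp the Sc construct of the −SssI pool had 11 reads. Without run 5 of the +SssI pool the mean gain between the pools was 12.2 points. The number of CpGs with a smaller or larger gain in the lines was then 4. Only run 4 was left for Sc +SssI, with 11 or 12 reads per upstream CpG and 95 to 98 downstream. The part of this depth was not tested. Both tests count reads as independent and take no spread between clones or runs.

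**Figure D5:**
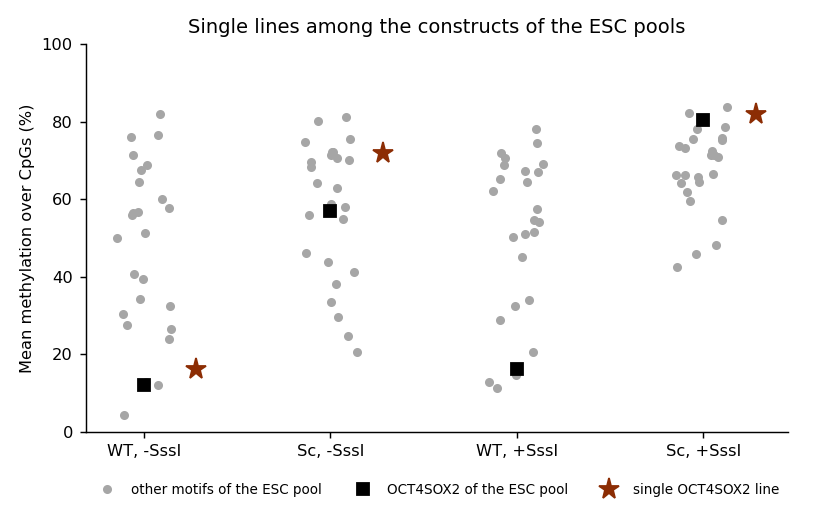
Mean methylation over CpGs in percent (y axis) of the constructs of the ESC pools, by motif version and condition (x axis); grey points are the other 25 motifs, squares OCT4SOX2 and stars the single lines. No line stands for WT +SssI. The WT line sits near the bottom at 16.1% and the Sc lines in the upper part at 71.8% and 82.0%.

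Set among the constructs of the pools, the WT line would rank low and the Sc lines high. Of the 26 WT constructs of the −SssI pool, with a mean of 45.8% ± 22.6 (SD over constructs), 4 lay below the WT line and 22 above it. The OCT4SOX2 construct itself ranked 3 from the lowest at −SssI and 4 from the lowest at +SssI. Of the 26 Sc constructs at −SssI, with a mean of 57.5% ± 17.6 (SD), 20 lay below the Sc line and 6 above, and the OCT4SOX2 Sc construct ranked 11 from the lowest. At +SssI, where the Sc constructs had a mean of 68.0% ± 10.9 (SD), 24 lay below the Sc line and 2 above, and the OCT4SOX2 Sc construct was also high, ranking 24 from the lowest. The value of this construct rests on run 5, with a mean of 82.1%, against 69.1% in run 4, and the runs hold the constructs in different shares, so its rank depends on how runs are combined.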

How the data were processed

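The authors sequenced bisulfite-converted amplicons of FR1. According to the study's methods, reads were trimmed, demultiplexed with Flexbar, sorted by motif, aligned with Bowtie2 and Bismark (0.20.0 in the submitters' processing notes, with R 3.6.2), filtered on non-CG methylation and deduplicated by UMI. For each CpG the authors deposited 2 counts, of all reads and of the methylated ones, in the pools split by run (8 runs at −SssI, 5 at +SssI). All 4 line tables used here head their count columns with the name of a further library, the knockdown with all siRNAs, above different numbers, and each was assigned by its sample record alone. Unmatched per-sample columns numbered 0. The deposited percentage tables were not used.

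CpGs with at least 10 reads were kept, reads of a pool were summed over runs, and means were taken over CpGs. Fisher's exact tests stand in for DSS, with Benjamini-Hochberg adjustment. The tests of the pools were adjusted over all 26 motifs. For the difference of differences, 1 methylated and 1 unmethylated read were added per library. The tests were checked on simulated data with independent reads at the depths of the lines. The simulation held no spread between clones or runs and no low depth as in the pools, so the check does not cover these. Work was done in Python 3.11.15 with numpy 2.4.6, scipy 1.17.1, pandas 2.3.3 and matplotlib 3.10.9.

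In both comparisons of the lines, the CpGs named include the 3 largest and 3 smallest differences, those against the mean, and the nearest and outermost on either side. In the comparisons with the pools only some of these are named. For Sc +SssI against the pool, the 12 CpGs below the pool are given as a count. The lines, rules and lists were chosen with earlier results of these data known. The alternatives tried were at least 1 or 50 reads per CpG, the share of all calls, the upstream amplicon alone, CpGs inside the motif left out, a difference of 20 points, at most 100 reads per CpG, reads summed over 50 bp, equal weights of runs, and each run left out. Equal weights used only runs with at least 10 reads at a CpG. Counting runs 5 and 1 once was added after seeing the data. RNA-seq and other siRNA libraries were not used here.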

Additional observations from a re-analysis of the deposited data

Results flagged for a closer look

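The Δmet between the WT and Sc motif was not the same in the single lines and in the −SssI pool. By the test of the difference itself it differed at 13 of 23 CpGs, at 11 of them more negative in the lines and at 2 less negative (−235 and −187 bp). The WT construct of the pool had 36 to 40 reads and the Sc construct 11 reads at the downstream CpGs, 2 of which (109 and 151 bp) are among the 13. The part of depth, and of the number of cells behind each library, was not tested.

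The gain of the Sc motif with SssI also differed between lines and pools at 13 CpGs, and at all 13 it was smaller in the lines. In the +SssI condition line and pool had means of 82.0% and 80.3%, and in the −SssI condition 71.8% and 56.9%. Without run 5 of the +SssI pool, 4 CpGs were past the threshold, with 11 or 12 reads of the Sc construct left per upstream CpG. No group had enough samples to look for single libraries far from the others.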

How the results depend on the processing

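All 23 CpGs were called lower in the WT line than in the Sc line with a difference of 20 points, at 100 reads and with reads summed over 50 bp, as were all 18 in the upstream amplicon alone. The minimums of 1 and 50 reads and leaving out CpGs inside the motif could not change the lines. The means of the 3 lines and both differences between lines stayed within their counting intervals upstream and as the share of all calls. The 11 CpGs called higher and the 1 called lower in the Sc line with SssI became 3 and 0 with a difference of 20 points, and at 100 reads −121 and 109 bp were no longer called. With reads summed over 50 bp none was called lower, since the difference at −101 bp then became 4.58 points, and 14 were called higher, with −121 and −90 bp lost and −275, −235, −178, −166 and 37 bp gained. CpGs called between line and pool (4 for WT −SssI, 14 for Sc −SssI, 3 for Sc +SssI) became 2 and 1 for WT and Sc +SssI in the upstream amplicon alone, 6 for Sc −SssI and 0 for Sc +SssI at 20 points, 6 and 1 for these at 100 reads, and 11 for WT, 20 for Sc −SssI and 1 for Sc +SssI with reads summed over 50 bp. The CpGs at which lines and pools differed in Δmet, and those at which they differed in gain (13 each), became 8 each at 20 points and 8 each at 100 reads, and over 50 bp 9 for Δmet and 20 for the gain. With runs of at least 10 reads weighted equally, the Sc +SssI line was 6.45 points above its pool construct. For WT −SssI only run 4 had that many reads. Its 8.20 points are therefore the value without run 7 (4 to 6 reads per CpG) and no separate check.

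Leaving out 1 run in turn gave 4 to 9 called CpGs for WT −SssI, 2 to 8 for Sc +SssI and 4 to 15 differing gains. The difference between the Sc +SssI line and its pool ran from −0.055 to 12.9 points, that of the WT line from 4.02 to 8.20 points, and the gain of Sc in the pools from 12.2 to 25.2 points. The upper count for WT came without run 7 of the −SssI pool. Without run 5 of the +SssI pool the Sc +SssI count was 8, the differing gains 4 and the gain of the pools 12.2 points. The Sc construct then had only run 4, with 11 or 12 reads per upstream CpG. The cause of these changes, and the part of depth in them, was not tested. Without run 4 of the −SssI pool, or at 50 reads, no CpG of the WT construct was left and no value could be given. No paired analysis was possible because each line has 1 library and the replicate numbers of the labels belong to RNA-seq samples not used here. At the 36 to 40 reads of the WT construct, intervals of its pool values are wide.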
